A study of Mus musculus with 8 samples.

Results

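Unilateral ureteral obstruction (UUO) was set against its sham operation in mouse kidney, with 3 of the series' 8 libraries chosen by their labels. The 2 UUO libraries came from male wild-type C57BL/6J mice whose left ureter had been tied and cut, sampled at 7 days. The UUO sham was a single library from mice of the same strain, sex and genotype, operated on without ligation. The deposited names of the UUO libraries read saline and that of their control reads sham. These names do not tell whether the sham received saline too, so saline may differ along with obstruction. DNA came from kidney cortex and outer medulla, so every level is an average over the cell types of that tissue, and the share of each type was not measured. The labels name no separate animals, so the spread between the UUO libraries may be technical. Of the other 5 libraries, the pair after UUO with injections of 5AZA in saline (1 mg per kg each day) entered the statistical model only to estimate the spread. The sham of the ischemia series, and its single libraries at 1 week and 1 month after 25 minutes of bilateral clamping of the renal pedicles, were set beside the results.

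Ureteral obstruction raises the pressure in the renal pelvis, injures the tubular epithelium, draws in inflammatory cells and leads to fibrosis, in which myofibroblasts lay down collagen and fibronectin. Methylation of cytosine in CpG dinucleotides is written by DNA methyltransferases and removed by way of TET oxidation. CpG-dense promoters, the CpG islands, are usually unmethylated, most other CpGs in the genome are methylated, and intermediate levels in a tissue arise where cells or alleles differ.

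The method was reduced representation bisulfite sequencing (RRBS). The enzyme MspI cuts DNA at CCGG, short fragments are converted with bisulfite, and the level of a CpG is the share of its reads that stayed unconverted. Read counts summed over CpG positions, where a read counts once for each CpG it covers, were 76730132 and 65733691 for UUO and 68501854 for the sham. At least 10 reads in all 3 libraries lay at 992084 autosomal CpGs, with median depths of 63 and 53 reads for UUO and 52 for the sham. Windows of 1000 bp with at least 3 such CpGs numbered 94892. The end repair of the fragments used methylated dCTP, so a cytosine filled in at a cut site can read as methylated whatever its state in the kidney. Positions at fragment edges, found from changes in read depth, made up 58.4% of those kept. The other 412691 positions, called inside positions here, formed 33622 windows with at least 3 of them.

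The edge rule was checked on promoters. RefSeq promoter sequences of build GRCm38.p6 ran from 250 bases before to 50 after a transcription start. They were laid on the measured mm9 positions of their chromosome by the spacing of their CpGs, which placed 8107 sequences of 7216 genes. Among their measured CpGs, 18134 lay in CCGG and 99.87% of those were edges by the depth rule. Of the 93887 other CpGs, 33.2% were edges too, so the rule removes CpGs outside cut sites as well. These CCGG positions read 73.96% and 74.20% methylated in the UUO libraries, against 72.93% in the sham. The other CpGs of the same promoters, edges included, read 2.85% and 2.91% in the UUO libraries, against 2.58% in the sham. A promoter's CCGG positions thus read as methylated beside unmethylated neighbours in all 3 libraries, and the results below rest on inside positions unless stated.

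The sequences of 3 promoters are shown because the level of their CpGs outside CCGG, edges included, was higher in both UUO libraries. They also show how the cut sites interleave with these informative CpGs. They are RefSeq sequences of build GRCm38.p6, read 5′ to 3′ on the minus strand, at chr11:97500291-97500590 for 4933428G20Rik, chr6:52204538-52204837 for Hoxa5 and chr16:18588850-18589149 for Tbx1. Capitals mark CpGs that were measured outside CCGG. CCGG, which reads the same on both strands, occurs in 53.5% of all RefSeq promoter sequences of this length on the autosomes held in that table.
4933428G20Rik: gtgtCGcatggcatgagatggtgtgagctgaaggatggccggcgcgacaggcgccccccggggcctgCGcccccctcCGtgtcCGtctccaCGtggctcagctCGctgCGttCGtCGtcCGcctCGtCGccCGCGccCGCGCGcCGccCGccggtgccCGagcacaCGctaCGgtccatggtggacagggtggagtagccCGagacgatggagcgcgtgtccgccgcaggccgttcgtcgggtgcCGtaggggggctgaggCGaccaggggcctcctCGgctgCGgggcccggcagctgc
Hoxa5: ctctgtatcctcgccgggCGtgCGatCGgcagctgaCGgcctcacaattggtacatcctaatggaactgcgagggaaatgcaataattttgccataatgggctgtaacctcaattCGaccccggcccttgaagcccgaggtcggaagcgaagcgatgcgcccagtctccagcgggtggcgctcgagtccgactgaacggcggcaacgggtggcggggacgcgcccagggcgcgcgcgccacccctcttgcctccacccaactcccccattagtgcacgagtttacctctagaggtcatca
Tbx1: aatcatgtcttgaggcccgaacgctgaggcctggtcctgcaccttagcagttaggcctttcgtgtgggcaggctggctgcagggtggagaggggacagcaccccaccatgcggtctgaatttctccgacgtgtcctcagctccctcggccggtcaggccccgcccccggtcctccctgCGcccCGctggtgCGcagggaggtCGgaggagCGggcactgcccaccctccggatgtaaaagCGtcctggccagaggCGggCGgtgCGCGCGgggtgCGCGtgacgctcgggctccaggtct
In 4933428G20Rik, 27 informative CpGs spread from position -245 to position 34 relative to the start. In Hoxa5 the 5 measured ones all lay upstream, and in Tbx1 the 13 measured ones gathered around the start.

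Averaged over positions, the kidneys after obstruction were slightly more methylated than the sham. Inside positions averaged 23.02% and 23.06% in the UUO libraries (mean 23.04% ± 0.03, SD, n = 2), against 22.28% in the sham, a difference of 0.76 percentage points. Edge positions averaged 63.11% and 63.16% after UUO and 62.22% in the sham, 0.91 points higher. Both differences were many times the spread of the UUO pair, but with 2 libraries against 1 the two-sided exact permutation test gives p = 0.3333, the smallest it allows. The UUO sham itself lay 0.91 points above the ischemia sham over shared inside positions, so the UUO difference was no larger than that between shams of different surgical series. Each library's reads pooled over inside positions, which weights deep positions more, gave a difference of -0.90 points. The mean difference over inside windows was above 0 on 19 of 19 autosomes, from 0.77 to 1.27 points, which are not replicates since each library holds all of them.

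The difference was not spread evenly along the methylation scale. Windows were classed by their level in the ischemia sham, which has no part in the difference. In those at 10 to 30%, inside levels averaged 25.42% and 25.39% in the UUO libraries, against 20.94% in the sham. In windows at 30 to 70% they averaged 58.65% and 58.58% after UUO, against 54.10% in the sham. Both classes were thus about 4.5 points higher after UUO (4.47 and 4.51), in 1736 and 2964 windows. Unmethylated windows, below 10%, read 2.87% and 2.92% after UUO and 2.43% in the sham, while windows at 90% or more read 93.36% and 93.58% after UUO, on either side of the sham's 93.45%. In the 30 to 70% class both UUO libraries lay above the sham in 56.95% of windows and both below in 19.23%, and on all 19 autosomes the class mean was higher, by 3.41 to 5.98 points. These class means were not tested.

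Classing windows by the mean of both ischemia libraries makes it possible to set the distance between the shams beside the UUO difference. In the 30 to 70% class UUO exceeded its sham by 4.62 points and the UUO sham exceeded the ischemia sham by 2.56 points. In the 10 to 30% class these values were 3.91 and 1.74 points, so in both intermediate classes the UUO difference was the larger of the pair. Below 10% the order turned, with 0.42 points for UUO over its sham and 0.91 points between the shams.

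**Figure D1:**
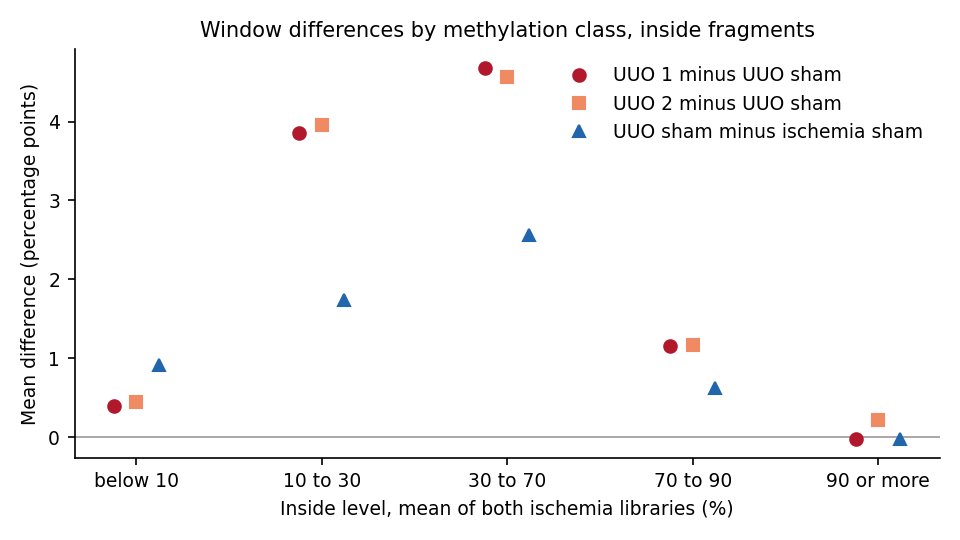
Mean difference in methylation level (percentage points) over inside windows, by class of the mean of both ischemia libraries (%). Circles and squares are the UUO libraries minus their sham, triangles the UUO sham minus the ischemia sham, and the UUO symbols stand highest at 30 to 70%, where the mean UUO difference was 4.62 points and that between shams 2.56.

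In the classes below 70%, the difference was smaller in windows with more inside CpGs. Among inside windows at 10 to 30%, those with 3 to 5 inside CpGs read 27.5% and 27.3% in the UUO libraries. The sham read 21.9% there, a difference of 5.52 points. Those with 20 or more CpGs read 20.0% and 20.9% after UUO and 19.5% in the sham, 0.92 points higher with an SD of 0.65 points in the UUO pair. Between them, windows with 6 to 10 and 11 to 19 CpGs were 2.80 and 2.47 points higher, so in this class the difference was smaller in denser windows. At 30 to 70% the differences were 4.67, 3.76, 3.58 and 2.22 points from the sparsest to the densest windows, with 26 windows in the last. Below 10% they were 0.87, 0.49, 0.33 and 0.24 points in the same order of windows. The order did not hold in the classes at 70% or more. From 3 to 5 up to 11 to 19 CpGs, the differences were 0.89, 1.64 and 0.92 points at 70 to 90%. At 90% or more they were -0.01, 0.20 and 0.30 points. The densities follow what was sequenced and kept, since only inside CpGs of MspI fragments count. A window with few inside CpGs can hold more CpGs at edges.

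The same windows read differently inside fragments and at their edges. In 1424 windows at 30 to 70% that held both kinds of position, inside CpGs averaged 57.2% and 57.0% in the UUO libraries, against 52.7% in the sham, while edge CpGs averaged 75.8% and 75.9% after UUO and 73.9% in the sham. The UUO difference was 4.41 points inside and 1.95 points at the edges. In 17567 unmethylated windows the inside CpGs were 0.42 points higher after UUO, and the edge CpGs, at 36.6% and 37.3% after UUO against 37.7% in the sham, were 0.76 points lower. The difference was thus smaller at the edges in intermediate windows and of the opposite direction in unmethylated ones.

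**Figure D2:**
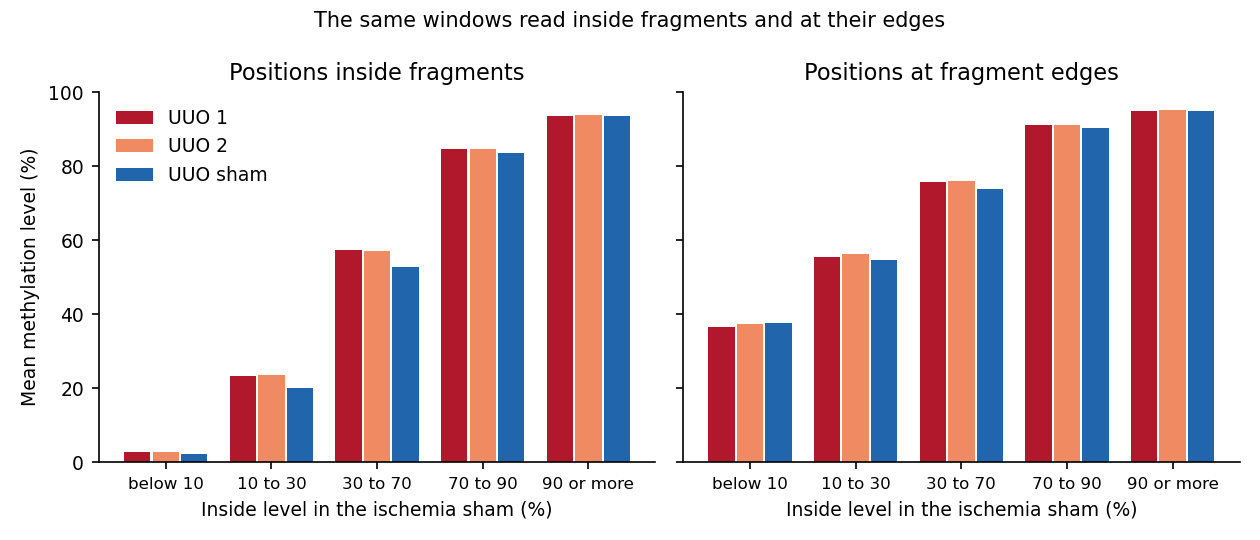
Mean methylation level (%) of the same windows at inside positions (left) and edge positions (right), by inside level in the ischemia sham (%), with bars for UUO 1, UUO 2 and the UUO sham. In the class below 10% the inside bars stand under 3% and the edge bars between 36.6% and 37.7%, and at 30 to 70% the UUO bars exceed the sham bar by 4.41 points inside and 1.95 at edges.

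Distance from CpG islands was described without an annotation, by the distance to the nearest core. A core is a window with 20 or more measured CpGs, edges included, and an inside level below 10% in the ischemia sham. The cores themselves read 2.38% and 2.46% after UUO and 2.13% in the sham, a difference of 0.29 points. Windows 1 kb from a core were 0.72 points higher after UUO, those 2 kb away 1.13, those 3 to 5 kb away 1.30, those 6 to 20 kb away 1.69 and those farther away 1.47 points. The difference thus grew over the first windows beside a core and changed little farther out. The sham level rose along with it, from 6.12% at 1 kb to 32.2% at 2 kb, 43.1% at 3 to 5 kb and 55.6% beyond 20 kb. Distance and level can therefore not be told apart in these means. In windows at 30 to 70%, UUO was 2.88 points higher at 1 kb, 1.87 at 2 kb, 4.25 at 3 to 5 kb, 5.19 at 6 to 20 kb and 4.51 beyond, with 89 and 88 windows in the nearest bins.

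Window by window, a moderated quasi-binomial model called 90 of 33622 inside windows (0.268%) where the adjusted p was below 0.05 and the group means lay at least 10 points apart. Of these, 86 were higher after UUO (0.256% of windows tested) and 4 lower (0.0119%). Over all positions, edges included, it called 16 of 94892 windows (0.0169%), 14 higher (0.0148%) and 2 lower (0.00211%), and 14 windows were in both sets, 15.6% of the inside calls and 87.5% of the calls over all positions. Unadjusted p-values below 0.05 were found in 8.13% of inside windows and 8.15% of windows over all positions. The calls depend on the model: on inside windows edgeR called 0 (2189 at an unadjusted p below 0.05), limma on log2 ratios called 0 (2114 unadjusted), and the model with a replicate block called 1. Over all positions edgeR called 2 and limma 0. Inside, leaving out the first or second UUO library gave 141 and 356 calls, 281 came from the model with only the UUO libraries and their sham, with which leaving out either 5AZA library coincides, and both shams as 1 group 217. The sham is a single library in every call, and its spread was assumed to equal that of the pairs.

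Of the 86 rises, the level in the UUO sham was below 10% in 24, at 10 to 30% in 32, at 30 to 70% in 26 and at 70% or more in 4. Of all 33622 windows these classes held 19420, 1819, 2959 and 9424, and the classes use the sham that entered the call. They lay on all 19 autosomes, and their median difference was 19.1 points, from 10.6 to 36.3. The UUO libraries were within 10 points of each other in 77 of the 86, with a median distance of 3.93 points. Of the 779 inside CpGs in these windows, 725 (93.1%) were higher in both UUO libraries than in the sham, against 29.3% of all inside CpGs kept, and the choice of windows favours that share. Another rise lay within 5000 bp in 4 of the 86, and within 1000000 bp in 36. Only 75 other inside windows lay within 5000 bp of a rise, so what was measured limits the first count. Of all inside windows 0.256% were rises, and clustering of the rises was not tested.

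The largest rise within the naming rule was at chr11:116505001-116506000 (mm9, as for all windows), with 3 inside CpGs. It read 60.6% and 39.4% in the UUO libraries, against 13.7% in the sham (95% exact binomial interval 9.77 to 18.4), a rise of 36.3 points (SE 6.57, adjusted p = 0.0287 in the moderated quasi-binomial model with limma). The ischemia sham read 33.9%, between the UUO sham and the lower UUO library, and with both shams as 1 group the adjusted p was 0.113. The rise at chr6:134199001-134200000 was more even, with 71.5% and 75.6% after UUO against 39.9% in the sham (interval 33.4 to 46.7) over 5 CpGs, 33.7 points higher (SE 5.12, adjusted p = 0.00454, same model). The ischemia sham read 36.5% there, close to the UUO sham, and all 5 CpGs were higher in both UUO libraries.

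Among the other large rises, chr5:151239001-151240000 read 49.7% and 50.9% after UUO and 20.2% in the sham over 4 CpGs. The window chr8:13248001-13249000 read 60.3% and 55.7% after UUO, against 29.9% in the sham. In both windows the UUO libraries agreed within 5 points and the ischemia sham, at 27.6% and 26.4%, lay near the UUO sham. On chromosome 6, chr6:84090001-84091000 read 53.6% and 47.8% after UUO, against 18.9% in the sham and 23.9% in the ischemia sham. The window chr6:128382001-128383000 read 59.5% and 63.9% after UUO and 33.2% in the sham. It lay 5674 bp from the start of Fkbp4, which encodes a co-chaperone of Hsp90, the nearest of the starts that could be placed. In chr14:122186001-122187000, 9956 bp from the start of Dock9, an exchange factor for Cdc42, the levels were 64.9% and 61.5% after UUO and 35.2% in the sham. Not every named rise was even: chr11:88144001-88145000 read 45.8% and 17.2% after UUO, against 2.72% in the sham (interval 1.18 to 5.29), and its ischemia sham of 11.1% lay nearer to the lower UUO library than the UUO sham did. Without the first UUO library chr14:122186001-122187000 no longer passed (adjusted p = 0.0577, same model), nor did chr11:88144001-88145000 with both shams as 1 group (adjusted p = 0.0654). The other 4 named rises, on chromosomes 2, 3, 5 and 19, were between 26.9 and 29.4 points. Without the first UUO library those on chromosomes 2 and 3 no longer passed (adjusted p = 0.0711 and 0.178, same model), nor did that on chromosome 19 without the second (adjusted p = 0.076).

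The 4 falls differed from the rises in where the UUO sham stood. At chr11:33097001-33098000, 5588 bp from the start of Tlx3, a homeobox factor of neurons, the level was 20.4% and 22.3% in the UUO libraries, against 52.1% in the sham (interval 45.2 to 58.8), a fall of 30.7 points. The ischemia sham read 19.5%, as low as UUO, and with both shams as 1 group the difference was -14.4 points (adjusted p = 0.335, same model). At chr8:86726001-86727000 the levels were 21.5% and 12.3% after UUO and 44.8% in the sham, with 31.8% in the ischemia sham. At chr3:124024001-124025000, 46 bp from the start of Tram1l1, which encodes a protein of the endoplasmic reticulum translocon, 11 CpGs read 8.75% and 11.2% after UUO, against 20.9% in the sham and 9.76% in the ischemia sham. Only 1 of these 11 CpGs was lower than the sham in both UUO libraries, and 3 were higher in both. The fall at chr15:100884001-100885000 rested on the most CpGs, 45, with 52.2% and 53.7% after UUO against 63.4% in the sham, 10.5 points lower. With both shams as 1 group none of the falls passed: the differences were -21.4 points on chromosome 8 (adjusted p = 0.0536, same model), -5.37 on chromosome 3 and -7.24 on chromosome 15, and without the first UUO library the chromosome 3 and chromosome 15 differences were -9.73 points each, short of the minimum. In 4 of 4 falls the UUO sham lay above the ischemia sham, by a median of 12.1 points, as it did in 70.9% of all inside windows, and the choice of falls favours a high UUO sham.

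**Figure D3:**
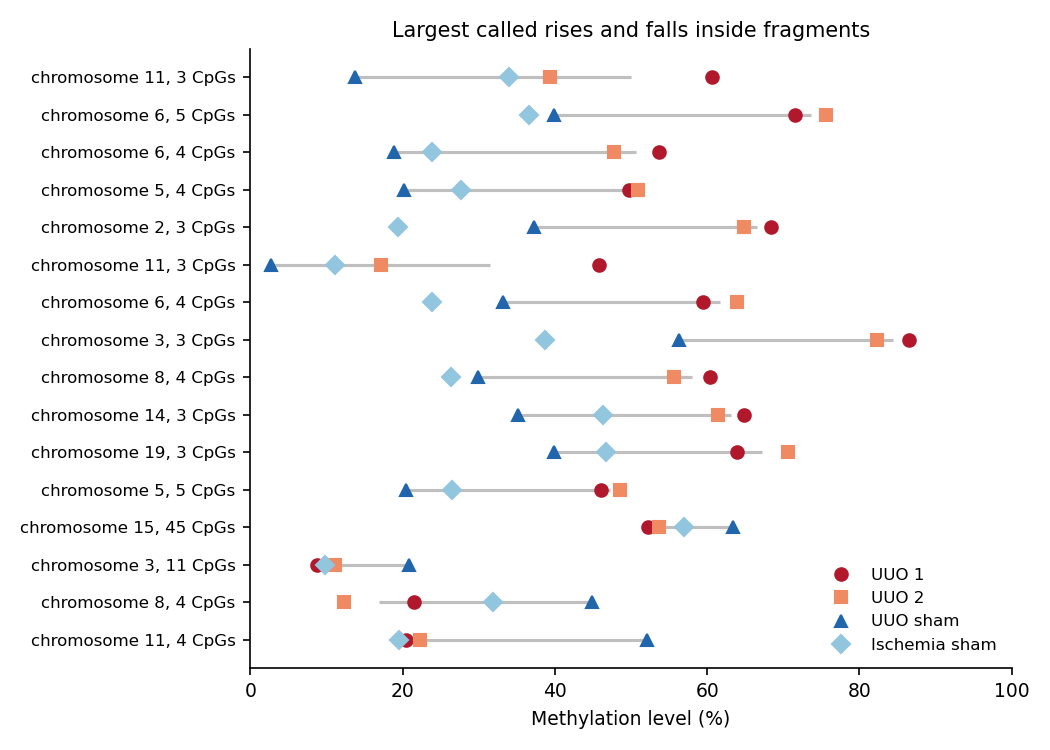
Methylation level (%) of inside CpGs in the 12 largest called rises (upper rows) and the 4 called falls (lower rows), for UUO 1, UUO 2, the UUO sham and the ischemia sham; grey lines join the UUO mean and the UUO sham. The rises span 26.9 to 36.3 points, and in the lowest row, a fall on chromosome 11, the ischemia sham (19.5%) lies beside the UUO libraries and the UUO sham (52.1%) apart.

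The ischemia libraries took no part in the calls and give the 86 rises a further set of values. Their median level was 45.6% and 41.8% in the UUO libraries, 21.1% in the UUO sham and 23.6% in the ischemia sham. UUO exceeded the ischemia sham in 84 of the 86, by a median of 17.0 points, against 78.8% of all inside windows with a median of 1.20 points. The choice of windows for high UUO levels favours that count. The UUO sham exceeded the ischemia sham in 40 of 86 (46.5%), against 70.9% of all inside windows and 62.8% of those at 10 to 70% in the UUO sham, so it stood lower at the rises than elsewhere, which their choice favours too. After ischemia the median was 26.7% at 1 week and 31.8% at 1 month. At 1 month 73 of 86 (84.9%) were above the ischemia sham, against 54.5% of all inside windows and 64.3% of those at 10 to 70% in the UUO sham. At 1 week it was 62 of 86 (72.1%), against 50.02% and 52.8%. The ischemia times are 1 library each and share their sham, so these shares are a description without a test.

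**Figure D4:**
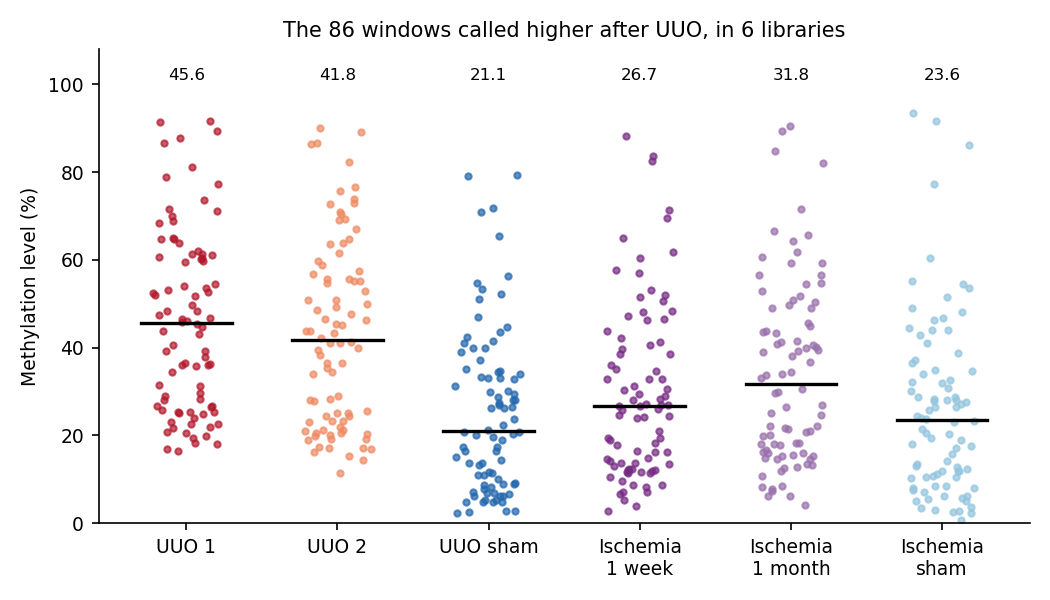
Methylation level (%) of inside CpGs in each of the 86 windows called higher after UUO, in 6 libraries, with black lines and printed numbers for the medians. The medians are 45.6 and 41.8 in the UUO libraries, 21.1 in the UUO sham, 26.7 and 31.8 at 1 week and 1 month after ischemia and 23.6 in the ischemia sham.

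The surroundings of the rises were examined in the 75 other inside windows within 5000 bp of one. They read 32.6% and 32.2% in the UUO libraries, against 28.0% in the sham, 4.34 points higher, where all inside windows were 1.02 points higher. For the 21 neighbours at 10 to 70% in the ischemia sham, the levels were 47.8% and 46.8% after UUO and 37.4% in the sham, 9.91 points higher against 4.50 points for all windows of that class. Both UUO libraries lay above the sham in 71.4% of these neighbours and both below in none, with 57.4% and 19.1% in the class as a whole.

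Starts of placed genes were rare among the calls. Of the 6315 inside windows that held a placed start, 4 were called higher (0.0633% called), of the 4856 within 5000 bp of one 8 higher and 1 lower (0.185%), and of the 21457 farther away 72 higher and 3 lower (0.350%). Windows with a start read 3.08% and 3.17% after UUO and 2.83% in the sham. The sham level was 44.4% in the windows farther than 5000 bp from a start. Nearness to a start and level can therefore not be told apart in these shares. Chromosome 18, which holds 2 of the rises, had no promoter sequences in the table used, and a start that could not be placed may lie nearer than the one named. The windows near a start that follow were chosen after their values were seen, for that nearness.

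The placed start with the largest rise in its own window was that of 4933428G20Rik, a transcript known by its RIKEN symbol. The window chr11:97361001-97362000 read 51.9% and 50.9% over 30 inside CpGs in the UUO libraries, against 30.1% in the sham and 27.1% in the ischemia sham (difference 21.3 points, SE 1.86, adjusted p = 7.98e-06, same model). The next window, chr11:97362001-97363000, rose too, with 43.1% and 43.8% after UUO and 19.7% in the sham. With edge positions kept the first of these was also the largest rise of that fit, at 55.7% and 54.6% after UUO against 36.0% in the sham (19.2 points, adjusted p = 0.000907).

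Called windows also lay at or near the starts of several transcription factor genes, a grouping made after the values were seen and not tested. The window with the start of Hoxa5, a homeobox factor of segment identity, read 20.7% and 25.6% over 17 CpGs after UUO, against 8.85% in the sham, and all 17 were higher in both UUO libraries. A window 250 bp from the start of Gbx2, a homeobox factor of the early brain, read 17.0% and 20.4% after UUO, against 6.79% in the sham. Zfp503, a zinc finger repressor, had a rise 1178 bp from its start, where 13 CpGs read 25.3% and 24.4% after UUO and 8.70% in the sham. The ischemia sham read 7.44% at Hoxa5, 7.95% at Gbx2 and 11.97% at Zfp503, near the UUO sham in each case. A window 141 bp from the start of Gm46866 and 677 bp from that of Glis1, a zinc finger factor, read 31.5% and 20.5% after UUO and 13.2% in the sham. The window with the start of Foxa3, a forkhead factor of liver and gut, read 26.7% and 18.99% after UUO against 10.0% in the sham, but the ischemia sham stood at 17.1% and 6 of its 14 CpGs were higher in both UUO libraries.

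Further called windows lay near genes of other roles. A window 4060 bp from the start of Wif1, a secreted inhibitor of Wnt, read 64.9% and 63.7% after UUO, against 41.5% in the sham and 51.6% in the ischemia sham. A window 3574 bp from the start of Midn, which encodes midnolin, read 36.4% and 41.4% after UUO and 21.3% in the sham, and with edges kept 55.6% and 56.3% after UUO and 37.0% in the sham. Near Rasgrp2, an exchange factor for Rap, the levels were 21.9% and 11.5% after UUO and 4.90% in the sham, so the UUO libraries lay farther apart there. Srebf1, a regulator of lipid synthesis, had a rise 6918 bp from its start, with 48.3% and 49.8% after UUO and 28.8% in the sham. At Gm15609, 25 CpGs read 21.8% and 23.0% after UUO, against 10.96% in the sham and 3.74% in the ischemia sham. With edges kept, further named rises lay 4886 bp from 2700081O15Rik (45.9% and 41.2% after UUO, against 29.0% in the sham), 7177 bp from Pole2, a subunit of DNA polymerase epsilon (75.0% and 75.6%, against 56.6%), and 8707 bp from Sipa1, a GTPase activator for Rap (48.96% and 50.6%, against 35.7%). The Pole2 window no longer passed at a minimum of 20 reads per CpG (16.9 points, adjusted p = 0.183, same model). The remaining named windows of that fit were rises on chromosomes 5, 7 and 17 of 19.1, 16.7 and 15.5 points, and falls of 11.5 points on chromosome 16 and of 10.4 points in the chromosome 15 window already described.

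Promoters as a whole stayed close to unmethylated. Promoter levels were taken over CpGs outside CCGG, edges included. Over the 7427 placed promoters that could be tested, the median level was 1.89% and 1.96% in the UUO libraries and 1.71% in the sham. It was 0.69% in the ischemia sham, a larger gap between shams than between UUO and its sham. One promoter was called (0.0135%), and unadjusted p-values below 0.05 were found in 5.20%, 273 promoters higher (3.68%) and 113 lower after UUO (1.52%). Both UUO libraries lay above the sham in 42.4% of promoters and both below it in 26.0%. The 64 promoters at 10 to 30% in the ischemia sham averaged 20.2% and 21.8% after UUO and 18.4% in the sham, 2.65 points higher.

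The promoter called was that of 4933428G20Rik, printed above, with 47.98% and 46.53% in the UUO libraries, against 17.02% in the sham (30.2 points, SE 2.21, adjusted p = 1.47e-08, same model). Its 27 informative CpGs ran from 26.7% to 66.0% in the first UUO library, from 26.7% to 62.7% in the second and from 5.00% to 29.2% in the sham, and all 27 were higher in both UUO libraries. Its 4 CCGG positions had medians of 82.5% and 82.3% after UUO and 78.6% in the sham, so at the cut sites the libraries stood much closer. The ischemia sham read 24.6%, the 1-week ischemia library 35.1% and the 1-month library 38.6%. In edgeR the adjusted p was 0.796 and with limma on log2 ratios 0.748, while leaving out either UUO library left it called.

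**Figure D5:**
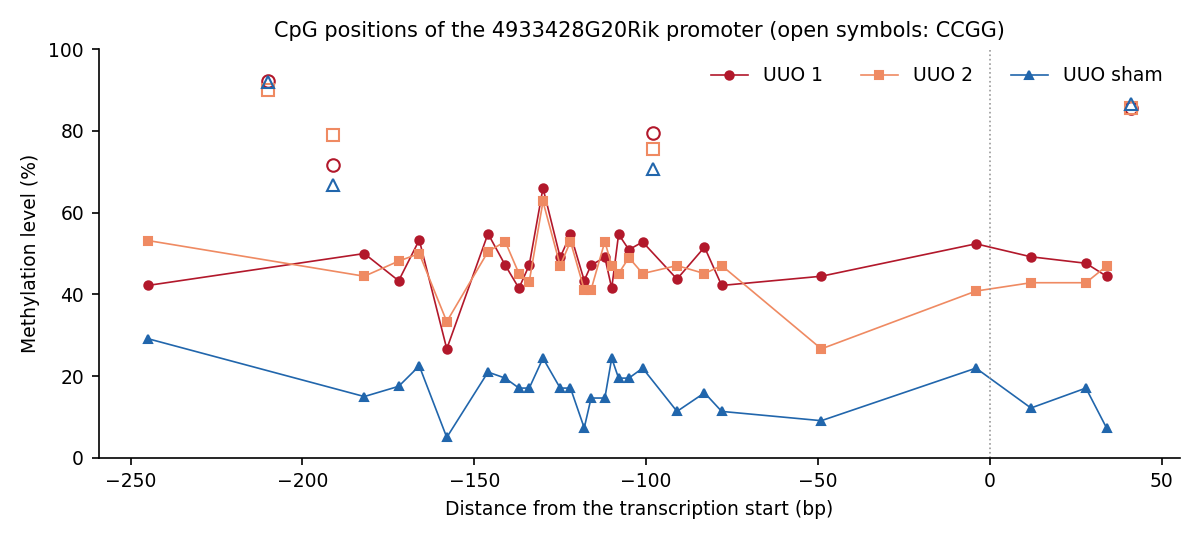
Methylation level (%) of each measured CpG of the 4933428G20Rik promoter against distance from its transcription start (bp), for UUO 1, UUO 2 and the UUO sham, with open symbols for CCGG. At all 27 other CpGs both UUO libraries lie above the sham, whose highest value is 29.2%, and the 4 CCGG positions lie above 60% in all 3 libraries.

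Other promoters had values in the same direction without passing the test, and those given here were among the lowest in unadjusted p, same model. Gm35510 read 61.6% and 49.2% after UUO and 33.6% in the sham, with 41.3% in the ischemia sham. Hoxa5 read 31.8% and 42.3% over the 5 printed CpGs after UUO, against 14.1% in the sham and 10.9% in the ischemia sham (22.9 points, adjusted p = 0.222, same model). Tbx1, a T-box factor of pharyngeal and heart development, read 42.0% and 46.8% after UUO and 30.7% in the sham, with 36.6% in the ischemia sham. Of its 13 printed CpGs, 10 were higher in both UUO libraries and 1 lower in both. Igf2r, an imprinted gene whose receptor clears IGF2, read 33.7% and 40.7% after UUO, against 25.1% in the sham and 22.3% in the ischemia sham. Sema4b, a semaphorin, read 5.24% and 7.32% after UUO and 1.22% in the sham, and Palm3, a paralemmin, 24.0% and 30.0% after UUO and 10.3% in the sham. In the other direction, Nktr, a cyclophilin-related protein, read 0.95% and 0.79% after UUO, against 3.76% in the sham, and Iqgap2, a scaffold protein, 2.13% and 1.603% after UUO, against 4.69% in the sham. The ischemia sham read 0.58% at Nktr and 1.20% at Iqgap2, so the UUO sham stood above it at both.

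Lists of genes tied to fibrosis and to methylation itself were read for their promoters, and in none of them did a member pass the test. Of 30 genes of the TGF-beta pathway, which drives myofibroblasts, 12 had a placed promoter. Of their 15 promoters 1 was higher and 2 lower at an unadjusted p below 0.05, where 3.68% of all promoters were higher and 1.52% lower, with a median difference of -0.14 points, against 0.25 points over all promoters. Ltbp4, which holds latent TGF-beta in the matrix, read 4.04% and 3.42% after UUO and 9.17% in the sham at the promoter concerned, and its second promoter 3.59% and 1.98% after UUO and 2.90% in the sham. Smad3, a transducer of the signal, read 0.74% and 0.63% after UUO and 4.41% in the sham. At that Ltbp4 promoter the ischemia sham read 0.98%, and at Smad3 0.54%, so the UUO sham stood above it at both. The higher one was a promoter of Smad5, a transducer of BMP signals, at 3.12% and 6.25% after UUO. The sham had 0 of 149 read counts, summed over 7 CpGs. Taken as independent, these counts allow up to 2.01%, but 1 read can span several CpGs, so the true bound can be higher. Another Smad5 promoter, with 14 CpGs, read 3.07% and 3.54% after UUO and 1.45% in the sham. That with 25 CpGs read 2.10% and 1.95% after UUO and 1.39% in the sham, and neither was below 0.05 unadjusted. Of 36 genes of the fibrotic matrix and its turnover, 10 were placed, with 1 of 10 promoters higher and 0 lower at that level, against the same 3.68% and 1.52%, and a median of 0.44 points. The member was Plod3, a lysyl hydroxylase of collagen, at 3.88% and 4.81% after UUO and 1.01% in the sham.

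Of 23 enzymes and cofactor genes of DNA methylation, 14 were placed, with a median difference of 0.18 points. Of their 17 promoters 1 was below 0.05 unadjusted, higher after UUO, against 3.68% of all promoters. It was that of Gnmt, which uses up the methyl donor S-adenosylmethionine, at 19.5% and 17.5% after UUO, against 10.0% in the sham. Of 37 nephron transcription factors 15 were placed, with none below 0.05 and a median of 0.62 points, and of 39 HOX genes 9 were placed, with Hoxa5 and Hoxd11 higher at that level, against 3.68% of all promoters, and a median of 0.32 points. Hoxd11, which patterns the kidney and limb, read 4.63% and 2.95% after UUO and 1.67% in the sham.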

How the data were processed

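DNA methylation was measured by RRBS in mouse kidney, and samples were grouped by their titles. The deposited tables hold, for each CpG, the authors' count of covering reads and count of methylated reads, not normalized, and the level as a fraction rounded to 3 decimals, which was not used. The submitters' processing notes name Bowtie and mm9; the sources used here give no caller and no filters. No mm9 genome was used here.

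Positions needed 10 reads in all 3 libraries; counts were summed in windows of 1000 bp with at least 3 positions on the 19 autosomes. An edge is a CpG whose depth over all 8 libraries changes by more than 10% to a neighbour within 250 bp that holds 40 reads, or that lacks such a neighbour on a side. Promoter sequences needed 8 matching CpGs, at 1 place only; of 31396 sequences, 15382 had that many CpGs and 8110 were placed, and 99.96% of these kept their distance to a neighbour in both builds. Placement and promoter tests were added after the design was fixed.

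The quasi-binomial model had 1 mean for each of UUO, sham and UUO with 5AZA (5 libraries, 2 residual degrees of freedom). The Pearson dispersion, shrunk by limma's squeezeVar (limma 3.58.1, R 4.3.3), was kept at 1 or above, and groups were tested by a two-sided F test with Benjamini-Hochberg adjustment over all windows or promoters; a call needed an adjusted p below 0.05 and 10 points. The UUO pair differed by more than binomial sampling (mean chi-square per position 1.22), so they were not taken for copies of 1 library, though PCR copies can raise that value too. Read intervals are exact binomial at 95% and treat the counts summed over the CpGs of a window as independent. A read that spans several CpGs is counted at each of them, and duplicates from PCR were not separated from other reads. The intervals thus cover counting error at most, and can be too narrow even for that.

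Named windows are up to 12 rises and 8 falls of the inside fit and up to 8 rises and 5 falls of the fit over all positions, the largest that moved alike in both UUO libraries. Alternatives were other read, depth, difference, window and edge settings, other libraries in the model, edgeR 4.0.16, limma on log2 ratios (pseudocount 1), and a replicate block. Members, lists and rules were chosen with earlier results of these data known. Python 3.11.15 with numpy 2.4.6 and pandas 2.3.3 was used.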

Additional observations from a re-analysis of the deposited data

Results flagged for a closer look

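In 11 of the 86 called rises and 1 of the 4 called falls inside fragments, both ischemia libraries moved against the direction of UUO, each from its sham. The difference between the injuries was not tested. Such a share over all inside windows was not computed, so these counts do not set the called windows apart. Over all inside windows, ischemia lay above its sham in 50.02% at 1 week and in 54.5% at 1 month. The described windows among the 11 rises and the 1 fall follow. At chr11:97362001-97363000 (mm9), the window after the one with the start of 4933428G20Rik, UUO was 23.71 points above its sham, while ischemia lay -3.73 points from its sham at 1 week and -6.68 points at 1 month. At chr7:19608001-19609000, with the start of Foxa3, UUO was 12.9 points higher and ischemia -3.36 and -1.14 points from its sham. At chr3:124024001-124025000, beside the start of Tram1l1, UUO lay -10.94 points from its sham, while ischemia was 3.30 points above its sham at 1 week and 1.86 points at 1 month. At chr11:116505001-116506000 UUO was 36.32 points above its sham and ischemia -1.05 and -0.19 points from its own. That window held 3 CpGs, and the read counts summed over them were as few as 99 in a library of the UUO comparison. The ischemia shifts in these windows were not tested against counting error, so no movement after ischemia is shown.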

How the results depend on the processing

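Mean differences kept their direction under the alternatives other than pooling reads over positions, which turned them to -1.82 points over all positions and -0.90 inside; the cause was not tested. With both shams as 1 group they were 1.33 points over all positions and 1.22 inside, and inside 1.02 with windows weighted equally and 0.72 with an edge at a depth change above 5%. Without UUO 1 or UUO 2 they were 0.83 to 0.87 points over all positions, 0.74 to 0.79 inside and 4.48 to 4.55 in the 30 to 70% class, and this class read 4.68 points with the 5% edge, 4.62 classed by both ischemia libraries and 2.93 with edges kept.

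Counts of calls moved widely, and in each count of 3 or more rises outnumbered falls. Over all positions (16) the count was 0 at a minimum of 20 points, 2 with 300 bp windows, 2 with edgeR, 0 with limma on log2 ratios (7449 windows at an unadjusted p below 0.05), 930 with no library but UUO and its sham, 318 with both shams as 1 group and 168 to 987 leaving out 1 library. Inside (90) it was 39 at 20 points, 172 with 300 bp windows, 0 with edgeR and 0 with limma, 281 with only UUO and its sham, 217 with both shams and 141 to 356 leaving out 1 library. Promoter calls (1) were 3 with only UUO and its sham, 0 with edgeR (358 unadjusted), 0 with limma (376 unadjusted) and 3 to 5 leaving out 1 library. Of the 90 inside windows, 68 were still called without UUO 1, 87 without UUO 2, 83 at 20 reads and 71 with the 5% edge. None of the 16 named inside windows passed in edgeR, with limma or under the replicate block, and none reversed in any setting run.

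With a replicate block the calls were 266 over all positions and 1 inside. UUO and UUO with 5AZA share the numbers 1 and 2, the sham only number 1, and deviations of same-numbered libraries correlated at r = 0.07 across 94178 windows, so the numbers were not taken as pairs. The single sham limits every call, whatever the depth.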
